A study of Mus musculus with 6 samples.

Results

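The glutathione S-transferases, enzymes of detoxification, were followed in adipocyte RNA from mice with and without a deletion of the PU.1 gene directed to their fat cells. The genes were Gsta4, Gsta3, Gstm1, Gstm2, Gstp1, Gstt1, Gstz1, Gstk1, Mgst1 and Mgst3, taken as the rows of the count table whose mouse Ensembl identifiers carry those symbols, and all 10 were found among 35122 genes. They were chosen by symbol, and selected on the measured rise of Gsta4 CPM between these same groups, so the differences between the groups are given below as a description and carry no test. Total RNA came from adipocytes that floated after collagenase digestion of epididymal fat from male C57BL/6 mice on standard chow, aged 10 to 11 months per the labels, while the study's own text gives an older age. Control mice were PU.1 fl/fl, with loxP sites around exon 5 of Spi1, the gene for PU.1. The aPU.1KO mice were AdipoqCre PU.1 fl/fl, which carry the same floxed alleles together with Cre recombinase driven by the adiponectin gene's regulatory region, so that deletion is directed to fat cells. Each group held 3 mice with 1 library each. Only the aPU.1KO mice carried Cre, so loss of PU.1 and any effect of the transgene or of its insertion cannot be told apart in this design.

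Glutathione S-transferases join the tripeptide glutathione to reactive electrophiles, which makes the products more soluble and readies them for export. The soluble enzymes are grouped into classes named alpha, mu, pi, theta and zeta, the kappa enzyme sits in mitochondria and peroxisomes, and the microsomal enzymes are membrane proteins of a separate origin. GSTA4 is an alpha-class enzyme known for its high activity towards 4-hydroxynonenal, a reactive aldehyde formed when membrane lipids are oxidized. In fat, this enzyme is known for limiting the attachment of such aldehydes to adipocyte proteins. PU.1 is an ETS-family transcription factor that is best known for directing the development of macrophages and B cells.

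How well the RNA of one transferase can be told from that of its relatives depends on their sequences. The first 60 coding bases of Gsta4 and of its alpha-class relatives Gsta3 and Gsta1 are shown because they make visible how far Gsta4 has diverged, with capitals at the bases that differ from Gsta4. They were read from the GENCODE M21 transcripts on GRCm38.
Gsta4: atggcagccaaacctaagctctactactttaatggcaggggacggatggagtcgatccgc
Gsta3: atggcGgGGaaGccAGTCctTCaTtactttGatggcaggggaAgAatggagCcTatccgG
Gsta1: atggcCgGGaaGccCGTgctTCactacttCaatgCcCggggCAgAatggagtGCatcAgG
Gsta3 differed from Gsta4 at 17 of these 60 bases and Gsta1 at 19. Over the aligned coding sequence Gsta4 was 68.7% identical to Gsta3 and 68.1% identical to Gsta1, with no shared run longer than 13 bases in either pair. Of the 31-base words in the annotated Gsta4 transcripts, 100% occurred in no other gene, so none of these words is shared with another annotated gene. The pi-class pair lies at the other extreme, and its first 60 coding bases are shown for contrast, with capitals at the bases of Gstp2 that differ from Gstp1.
Gstp1: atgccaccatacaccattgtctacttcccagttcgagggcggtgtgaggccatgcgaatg
Gstp2: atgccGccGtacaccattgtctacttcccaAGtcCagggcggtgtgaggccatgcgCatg
Only 6 of 60 bases differed, the full coding sequences were 98.1% identical, and a run of 303 bases was the same in both genes. Unique 31-base words made up 61.5% of those in Gstp1, 71.2% in Gstm1, 87.8% in Gstm2 and 88.7% in Gstz1. For Gstp1 and Gstm1 in particular the split of reads with close copies was therefore uncertain. The share in the other 5 genes was between 97.3% and 100%. Gstz1 also shares 465 bases of exon with a neighbour on the other strand, and whether reads were assigned by strand is not given in the sources used here.

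Stretches of promoter were examined for the core of the antioxidant response element, TGACNNNGC, which is bound by NRF2, and for the ETS core GAGGAA, which PU.1 recognizes, on both strands of windows running from 250 bases before to 50 bases after each RefSeq start (GRCm38.p6). There were 12 windows for 9 of the 10 genes, and Gsta4, which had none, was not scanned. The antioxidant core was found in 2 of the 12 windows, that of Gsta3 and 1 of the 2 of Mgst1, and occurred in 12.4% of all 32851 windows. The ETS core was found in 3 of the 12, those of Gsta3 and Gstk1 and 1 of the 2 of Mgst1, and occurred in 28.3% of all windows. The antioxidant matches are shown with their flanks on the plus strand, since these genes are among those with higher levels below, and capitals mark the motif, which in Mgst1 reads on the strand opposite to the gene.
Gsta3, chr1:21240452-21240484: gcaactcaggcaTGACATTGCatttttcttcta
Mgst1, chr6:138140459-138140491: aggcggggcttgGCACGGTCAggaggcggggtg
These are matches of letters in 1 window and do not show that either factor binds there.

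Before the transferases, the libraries themselves are described briefly. Control mouse 1 was sequenced to 69283842 assigned counts and the other 5 libraries to between 20550252 and 24310144. Levels are given as counts per 1000000 assigned counts (CPM) after scaling by the trimmed mean of M values (TMM), and group differences as log2 fold changes, aPU.1KO over control, with the standard error (SE) from edgeR's quasi-likelihood fit to all 13925 genes that passed its filter on low counts. Spi1 was at 24.3, 6.35 and 26.7 CPM in control mice 1, 2 and 3 and at 3.20, 1.22 and 4.17 CPM in aPU.1KO mice 1, 2 and 3. Its log2 fold change was -2.75 (SE 0.64), with an adjusted p of 0.0788 in edgeR's quasi-likelihood test, from gene totals that also hold reads of the exons outside the deleted one. The groups did not overlap for Spi1, but control mouse 2 stood nearer to the aPU.1KO mice than to the other controls. The same mouse was low in macrophage RNA. The 10 macrophage marker genes summed to 1465, 408.5 and 1423 CPM in the controls and to between 191.1 and 288.2 CPM in aPU.1KO, and none of the 10 was at 0. The 10 adipocyte marker genes, all detected, summed to between 42780 and 46620 CPM in controls and to between 52510 and 61170 CPM in aPU.1KO, a ratio of 1.27 between the group means, and 9 of them had higher fitted levels in aPU.1KO. The 10 hepatocyte markers summed to between 48.0 and 72.3 CPM in controls and to between 20.3 and 32.5 CPM in aPU.1KO, where Fgb was at 0 counts in all 3 libraries and Apoa1, Ttr and Fga in at least 1, while none was at 0 in a control. The 6 progenitor markers summed to between 179.7 and 217 CPM in controls and to between 78.8 and 120.4 CPM in aPU.1KO. In bulk RNA such as this, fewer cells of a type and less RNA per cell cannot be told apart, and the part these marker shifts play in the transferase values was not tested, except where a value is given beside the result.

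Gsta4 (ENSMUSG00000032348, chromosome 9, 78182774 to 78209349, plus strand) differed most between the groups. It was at 10.9, 15.1 and 10.1 CPM in control mice 1, 2 and 3, and at 64.2, 93.6 and 62.3 CPM in aPU.1KO mice 1, 2 and 3. The lowest aPU.1KO library was 4.14 times the highest control library, so the groups lay far apart. Group means were 12.0 ± 2.65 CPM in controls and 73.4 ± 17.5 CPM in aPU.1KO (SD, n = 3 each). The log2 fold change was 2.61 (SE 0.22), or 6.12-fold, which ranked 9 among the 11897 genes with an average log2 CPM of at least 1, so that 0.0756% of them were at or above it. The counts behind these values ran from 255 to 794 in controls and from 1264 to 2070 in aPU.1KO, so counting error was small next to the difference between mice. The control mouse with the least macrophage RNA, control mouse 2, had the highest control Gsta4. Set against that mouse alone, a comparison added after the values were seen, the log2 ratio of the aPU.1KO mice was 2.28. Leaving out any 1 of the 6 libraries gave log2 fold changes between 2.40 and 2.79.

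**Figure D1:**
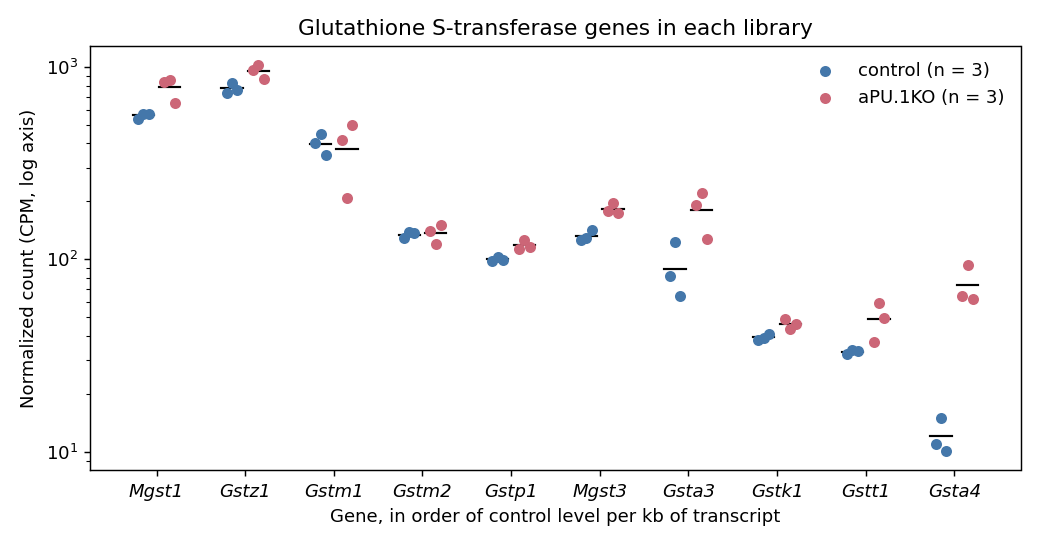
Level of the 10 genes in each library, in CPM on a log axis, with control mice in blue, aPU.1KO mice in red and a black line at each group mean (n = 3 per group). Gsta4, at the far right, runs from 10.1 to 15.1 CPM in controls and from 62.3 to 93.6 CPM in aPU.1KO, while Gstm1 and Gstm2 overlap between the groups.

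Gsta3 (chromosome 1, 21240589 to 21265661), the other alpha-class gene of the group, encodes an enzyme of detoxification and, in some species, of steroid isomerization. It was at 82.2, 122 and 64.2 CPM in control mice 1, 2 and 3 and at 191, 222 and 128 CPM in aPU.1KO mice 1, 2 and 3. The groups did not overlap, but by a narrow margin, since the highest control was again control mouse 2. The log2 fold change was 1.01 (SE 0.28), and it ranged from 0.81 to 1.29 with 1 library left out. Against control mouse 2 alone the log2 ratio was 0.56.

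The microsomal enzymes were both higher in every aPU.1KO library. Mgst1 (chromosome 6, 138140316 to 138156755), which protects membranes of the endoplasmic reticulum and mitochondria from lipid peroxides, was at 537, 570 and 571 CPM in control mice 1, 2 and 3 and at 838, 858 and 650 CPM in aPU.1KO mice 1, 2 and 3. The difference was 0.48 on the log2 scale (SE 0.13), and aPU.1KO mouse 3 lay closest to the controls. Mgst3 (chromosome 1, 167371966 to 167393841), a microsomal enzyme with transferase and peroxidase activity, was at 126, 129 and 141 CPM in control mice 1, 2 and 3 and at 179, 196 and 174 CPM in aPU.1KO mice 1, 2 and 3. Its log2 fold change was 0.47 (SE 0.08), with little spread among the mice of either group.

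The theta, zeta, pi and kappa genes were also higher in every aPU.1KO library. Gstt1 (chromosome 10, 75783813 to 75798584), of the theta class, was at 32.1, 33.8 and 33.3 CPM in control mice 1, 2 and 3 and at 37.4, 59.4 and 49.6 CPM in aPU.1KO mice 1, 2 and 3. The log2 fold change of Gstt1 was 0.56 (SE 0.16), and the aPU.1KO mice were spread much more widely than the controls. Gstz1 (chromosome 12, 87147165 to 87164723), the zeta enzyme that isomerizes maleylacetoacetate in tyrosine breakdown, was at 734, 828 and 757 CPM in control mice 1, 2 and 3 and at 963, 1020 and 869 CPM in aPU.1KO mice 1, 2 and 3. On the log2 scale Gstz1 differed by 0.30 (SE 0.11), with aPU.1KO mouse 3 just above control mouse 2. Gstp1 (chromosome 19, 4035407 to 4037985), of the pi class, was at 97.7, 102 and 99.7 CPM in control mice 1, 2 and 3 and at 114, 126 and 116 CPM in aPU.1KO mice 1, 2 and 3. Gstk1 (chromosome 6, 42245935 to 42250447), the kappa enzyme, was at 38.3, 39.0 and 41.1 CPM in control mice 1, 2 and 3 and at 48.8, 43.6 and 46.4 CPM in aPU.1KO mice 1, 2 and 3. For both the groups were separate but close, with log2 fold changes of 0.25 (SE 0.07) for Gstp1 and 0.23 (SE 0.08) for Gstk1.

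Gstm1 and Gstm2, of the mu class, did not share this pattern. Gstm1 (chromosome 3, 108012255 to 108017973), an abundant cytosolic transferase, was at 404, 447 and 348 CPM in control mice 1, 2 and 3 and at 415, 209 and 502 CPM in aPU.1KO mice 1, 2 and 3. The aPU.1KO mice spanned the whole control range, with mouse 2 far below and mouse 3 above it. The log2 fold change was -0.09 (SE 0.30), and without aPU.1KO mouse 2 it was 0.20. Gstm2 (chromosome 3, 107981702 to 107986453), its neighbour on the chromosome, was at 129, 138 and 136 CPM in control mice 1, 2 and 3 and at 140, 120 and 150 CPM in aPU.1KO mice 1, 2 and 3. For Gstm2 the log2 fold change was 0.02 (SE 0.10), and the sign turned to -0.05 without aPU.1KO mouse 3. The order of the aPU.1KO mice was the same for both mu genes, with mouse 2 lowest and mouse 3 highest. For Gsta4, Gsta3, Gstt1, Gstz1, Gstp1, Mgst1 and Mgst3 the order was different, with mouse 2 highest.

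In all, 8 of the 10 genes were higher in every aPU.1KO library than in any control, against 16.7% of all genes tested, and 9 of 10 had a log2 fold change above 0, against 52% of all genes. edgeR's adjusted threshold of 0.05 was passed by 1 of them, Gsta4, against 0.0575% of all genes called higher, and DESeq2's by 5, against 3.69% of all genes called higher. Since the genes were chosen with this contrast known, nothing is read from these shares. The edgeR background itself rested on single libraries, with 8 genes higher and 25 lower over all libraries, 202 and 991 without control mouse 2, and 0 in either direction without control mouse 1, where 1718 genes were at an unadjusted p under 0.05.

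Levels of different genes were compared only per kilobase of transcript. In controls, Mgst1 at 612 ± 21.2 and Gstz1 at 608 ± 38.7 CPM per kb (SD, n = 3) were the most abundant of the 10 and overlapped between libraries. Gstm1 came next at 378 CPM per kb, then Gstm2 at 140, Gstp1 at 123 and Mgst3 at 120, of which only Gstp1 and Mgst3 overlapped between libraries. Gsta3 was at 76.2, Gstk1 at 42.5, Gstt1 at 30.9 and Gsta4 at 12.3 CPM per kb, each below every library of the gene before it. Gsta4 was thus the scarcest of the 10 in control adipocytes, and the order was the same with edgeR's relative log expression scaling and with raw totals. In aPU.1KO its level of 75.1 CPM per kb lay above Gstk1 at 49.7 and Gstt1 at 45.5.

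The RNA of the family was also added up, per kilobase, over 25 genes. These were the 10 genes and the other family genes found, described below, without Ptges, Ltc4s, Hpgds, Alox5ap and Gstcd. Gsta1, Gsta2, Gstm3, Gstp3 and Gstt4 were included in the sum although their levels were too low to be tested. The genes in the sum are therefore not the same set as the 25 tested family genes. That sum was between 2253 and 2472 CPM per kb in controls and between 2813 and 3053 CPM per kb in aPU.1KO, a ratio of 1.27 between group means, and the ratio was 1.24 without Gsta4. Gsta4 made up 0.525 ± 0.0881% of the sum in controls and 2.54 ± 0.568% in aPU.1KO (SD, n = 3 each). The largest shares in both groups were those of Mgst1, Gstz1 and Gstm1. Mgst1 was at 26.3 ± 1.09% in controls and 28.9 ± 3.15% in aPU.1KO, and Gstm1 at 16.2% and 12.1 ± 5.19%, and the groups overlapped for both. Gsta3 made up 3.24 ± 0.917% in controls and 5.16 ± 1.21% in aPU.1KO, with aPU.1KO mouse 3 inside the control range. Only for Gsta4 among the 10 did the share in aPU.1KO exceed the control share several times over.

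The ratio of 1.27 for the family sum was equal, to 3 digits, to that of the adipocyte marker sum, and the median log2 fold change was 0.38 for the 10 transferases and 0.38 for the 10 adipocyte markers, against 0.01 for all genes tested. The fit was also run with libraries scaled on the adipocyte markers, which moved the median of all genes to -0.33. On that scale Gsta4 kept a log2 fold change of 2.26 (SE 0.17) and Gsta3 one of 0.66 (SE 0.24). Gstt1 was at 0.21, Mgst1 at 0.13 and Mgst3 at 0.12, all within 2 SE of 0. Gstz1 at -0.05, Gstp1 at -0.10 and Gstk1 at -0.11 changed sign, as did Gstm2 at -0.31, and Gstm1 was at -0.40. This scaling moved all genes by about the same amount, so which signs turned followed from the size of the first value, and Gstz1, Gstp1, Gstk1 and Gstm2 still lay above the shifted median of all genes.

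**Figure D2:**
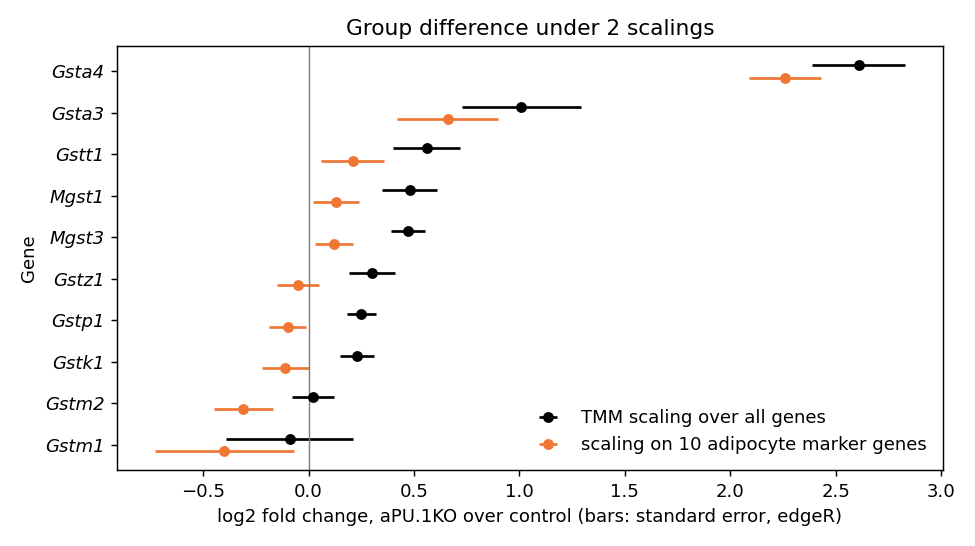
Log2 fold change of each of the 10 genes, aPU.1KO over control, with the standard error as bars, under TMM scaling (black) and under scaling on 10 adipocyte marker genes (orange). Gsta4 moves from 2.61 to 2.26 under marker scaling, and the other genes move down with it by about the same amount.

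Genes whose levels followed those of Gsta4 were ranked by Pearson's r of log2 CPM over the 6 libraries, among 11896 other genes. Because the groups lie apart for Gsta4, this r mostly reflects the gap between the groups and is given as a description. Among the nearest were Mrps15, of the mitochondrial ribosome, with r = 0.9983, Gucd1 with r = 0.9968, Elmod3 with r = 0.9957 and Mapk1ip1 with r = 0.9938. These 4 differed far less in size than Gsta4, with log2 fold changes of 0.42 to 0.56, and none passed edgeR's adjusted threshold. Among the transferases, r with Gsta4 was 0.97 for Gstp1, 0.95 for Mgst3, 0.93 for Gstz1, 0.90 for Mgst1, 0.90 for Gsta3, 0.86 for Gstt1 and 0.82 for Gstk1. It was -0.04 for Gstm2 and -0.31 for Gstm1.

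The rest of the family was taken from a list of 21 further transferases and related membrane enzymes, of which 20 were found and 15 could be tested. None passed edgeR's adjusted threshold, 4 had higher and 2 lower levels at an unadjusted p under 0.05 (11.9% and 13.7% of all genes), and DESeq2 called 2 higher and 2 lower (3.69% and 7.78% of all genes). The median log2 fold change of the 15 was 0.25. The alpha-class genes Gsta1 and Gsta2 were nearly undetected, with at most 1 count in any library, and Gstm3 had at most 2, all under a floor of 3 counts, so no fold is given. Gstp3 and Gstt4 were too low to be tested.

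Among the 4 at the higher end, Ptges, a membrane-bound prostaglandin E synthase related to the microsomal transferases, was at 57.7, 78.0 and 40.8 CPM in control mice 1, 2 and 3 and at 119, 165 and 78.2 CPM in aPU.1KO mice 1, 2 and 3, a log2 fold change of 1.04 (SE 0.32). The lowest aPU.1KO library was just above the highest control. The mu-class genes Gstm5 and Gstm4 had log2 fold changes of 0.38 (SE 0.09) and 0.43 (SE 0.17), and Gstt2, of the theta class, one of 0.48 (SE 0.18). At the lower end were genes of prostaglandin and leukotriene synthesis that macrophages and other leukocytes express. Hpgds, hematopoietic prostaglandin D synthase, was at 30.1, 3.41 and 31.5 CPM in control mice 1, 2 and 3 and at 3.76, 0.994 and 3.98 CPM in aPU.1KO mice 1, 2 and 3. Alox5ap, which presents arachidonic acid to 5-lipoxygenase, was at 21.4, 6.52 and 20.5 CPM in control mice 1, 2 and 3 and at 3.86, 2.49 and 4.69 CPM in aPU.1KO mice 1, 2 and 3. In both genes control mouse 2 lay near the aPU.1KO mice, as it did in the macrophage marker sum, and their log2 fold changes were -2.91 (SE 0.87) and -2.14 (SE 0.48). The remaining 9 had log2 fold changes of 0.64 for Gstt3, 0.49 for Gstm6, 0.46 for Gsto2, 0.25 for Gstm7, 0.20 for Mgst2, 0.04 for Gstcd, -0.05 for Gsto1, -0.15 for Gstp2 and -0.23 for Ltc4s.

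**Figure D3:**
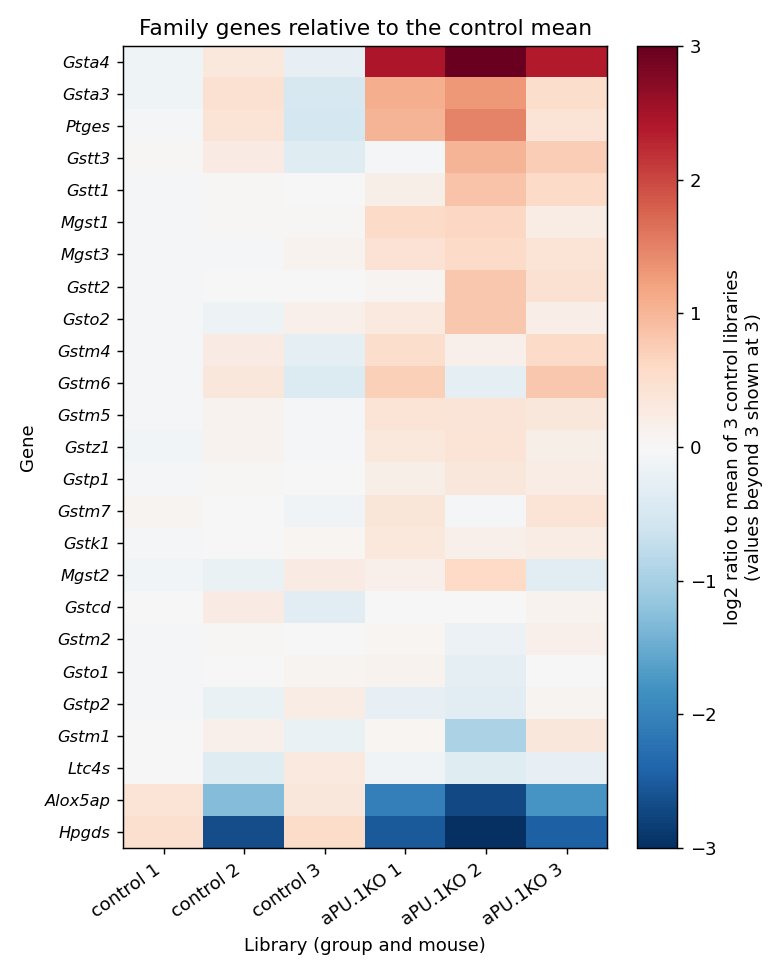
Log2 ratio of each of the 25 tested family genes (rows) to the mean of the 3 control libraries, in each of the 6 libraries (columns), with red above and blue below the control mean and values beyond 3 shown at 3. Gsta4 is the top row, and in the bottom rows Hpgds and Alox5ap are low in control mouse 2 as well as in the 3 aPU.1KO mice.

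Genes that make, recycle and break down glutathione lay on both sides of 0. Of 25 genes of glutathione synthesis and turnover 24 were tested, none passed edgeR's adjusted threshold, 4 were higher and 6 lower at p under 0.05 before adjustment (11.9% and 13.7% of all genes), and DESeq2 called 3 higher and 4 lower (3.69% and 7.78% of all genes). Their median log2 fold change was 0.10. Gclc, the catalytic subunit of the rate-limiting enzyme of glutathione synthesis, had a log2 fold change of 0.44 (SE 0.19), with aPU.1KO mouse 3 at 30.4 CPM inside the control range of 30.2 to 30.9 CPM. Its modifier subunit Gclm was at 0.05 (SE 0.08), glutathione synthetase Gss at -0.14 (SE 0.14) and glutathione reductase Gsr at 0.10 (SE 0.10). The 4 smallest p-values belonged to Glrx3, a glutaredoxin of iron-sulfur assembly, at 0.42 (SE 0.09), to Anpep, a peptidase that macrophages also express, at -2.55 (SE 0.60), to the dipeptidase Dpep1 at -0.81 (SE 0.19) and to Hagh, of the glyoxalase pathway, at 0.30 (SE 0.07). Anpep was at 78.1, 18.04 and 71.3 CPM in control mice 1, 2 and 3 and at 9.86, 5.24 and 13.7 CPM in aPU.1KO mice 1, 2 and 3, so control mouse 2 was again low. The highest log2 fold change of the list, 1.04 (SE 0.29), was that of Chac1, which degrades glutathione, with no overlap between the groups, and Ggt5, a gamma-glutamyl transferase, was at -0.57 (SE 0.15). Both were called by DESeq2 and not by edgeR.

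Other enzymes that dispose of reactive aldehydes and their conjugates gave 25 tested genes of 27. None passed edgeR's adjusted threshold, 6 were higher and 1 lower at p under 0.05 before adjustment, beside 11.9% and 13.7% of all genes, DESeq2 called 2 higher and 1 lower, beside 3.69% and 7.78%, and the median log2 fold change was 0.05. The 4 with the smallest p-values were Cbr4, a mitochondrial carbonyl reductase, at 0.40 (SE 0.09), Adh5, which oxidizes the glutathione adduct of formaldehyde, at 0.31 (SE 0.08), Aldh7a1 at 0.35 (SE 0.10) and Ptgr2 at 0.29 (SE 0.08). Aldh2, the mitochondrial aldehyde dehydrogenase, was at 0.40 (SE 0.16) and Akr1b8, an aldo-keto reductase, at -0.88 (SE 0.30). The groups overlapped for Akr1b8, with control mouse 2 at 17.9 CPM inside the aPU.1KO range of 16.5 to 19.3 CPM.

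NRF2 is the transcription factor that drives many transferases under oxidative or electrophilic stress. All 30 genes of its list were tested and none passed edgeR's adjusted threshold, while 1 was higher and 2 were lower at p under 0.05 before adjustment (all genes 11.9% and 13.7%), DESeq2 called 1 higher and 1 lower (all genes 3.69% and 7.78%), and the median log2 fold change was 0.05. Nqo1, a classical NRF2 target, was at 4.59, 3.20 and 4.72 CPM in control mice 1, 2 and 3 and at 3.81, 4.07 and 3.03 CPM in aPU.1KO mice 1, 2 and 3. The groups overlapped for Nqo1, with a log2 fold change of -0.20 (SE 0.23). Hmox1, heme oxygenase 1, was at -0.72 (SE 0.28) and the cystine transporter gene Slc7a11 at -1.50 (SE 0.46). The groups overlapped for Hmox1, with control mouse 2 at 41.63 CPM inside the aPU.1KO range of 33.25 to 50.57 CPM. The smallest p-value in the list was that of Tkt, transketolase of the pentose phosphate pathway, which was at 458, 491 and 441 CPM in control mice 1, 2 and 3 and at 892, 1012 and 647 CPM in aPU.1KO mice 1, 2 and 3. Tkt had a log2 fold change of 0.88 (SE 0.17) with no overlap between groups, and the adjusted p was 0.0753 in edgeR's quasi-likelihood test. Nfe2l2, which encodes NRF2, was at 0.10 and its repressor Keap1 at 0.06.

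**Figure D4:**
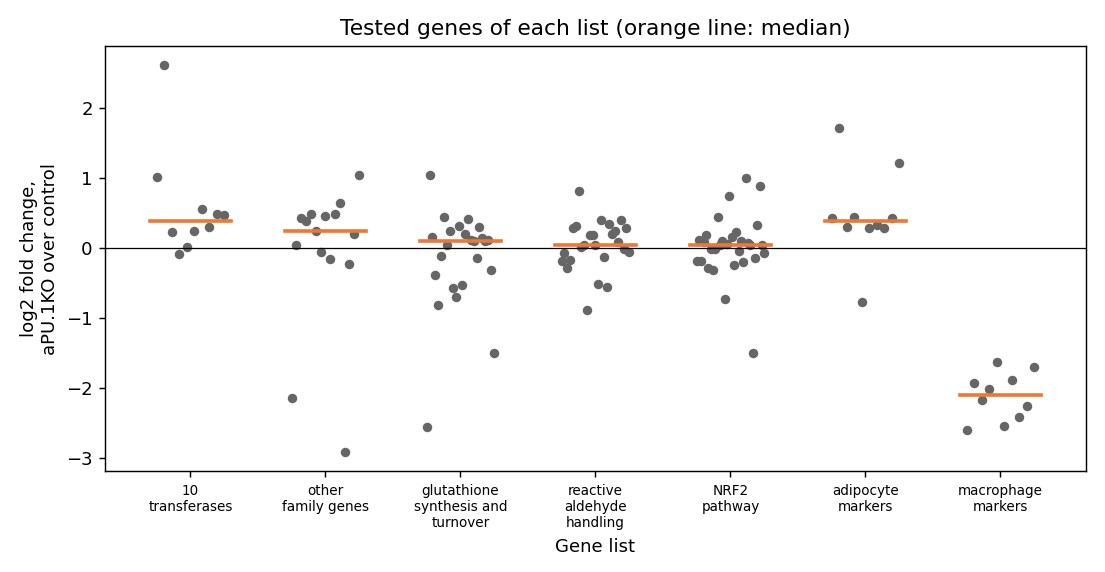
Log2 fold change, aPU.1KO over control, of every tested gene in 7 lists, with an orange line at each list's median. Gsta4 is the single point at 2.61 in the first column, and the medians of the 3 glutathione, aldehyde and NRF2 columns lie between 0.05 and 0.10.

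Gsta4 lies beside other genes on chromosome 9, so its neighbours were examined as well. Within 5 Mb on either side 35 other genes were tested. None passed edgeR's adjusted threshold, 4 were higher and 4 lower at p under 0.05 before adjustment, shares near the 11.9% and 13.7% of all genes, DESeq2 called 3 higher and 2 lower, against 3.69% and 7.78% of all genes, and the median log2 fold change was 0.04. The 3 nearest tested genes before Gsta4 were Elovl5, a fatty acid elongase, at 0.15 (SE 0.13), Fbxo9 at 0.20 (SE 0.10) and Ick at 0.00 (SE 0.13). The 3 nearest after it were Cgas, the cytosolic DNA sensor, at -0.59 (SE 0.27), Mto1 at 0.13 (SE 0.10) and Eef1a1 at 0.04 (SE 0.12). Gclc, described above, is also among the 35. The largest difference in size was that of Cd109, a cell surface protein, at -1.43 (SE 0.27), with an adjusted p of 0.0729 in edgeR's quasi-likelihood test, and Scg3, a granin of secretory granules, was at -1.03 (SE 0.42). The 3 that DESeq2 called higher were Lysmd2 at 0.62 (SE 0.17), Irak1bp1 at 0.61 (SE 0.15) and Cox7a2, a subunit of cytochrome c oxidase, at 0.47 (SE 0.15) in the edgeR fit, and in none of these did the groups overlap.

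Further out, a window of 12 Mb on either side, chosen after the positions of the called genes were seen, held 106 other tested genes. Of these, 2 passed edgeR's adjusted threshold and were higher, or 1.89%, while the median log2 fold change was -0.02. Bckdhb, a subunit of the complex that breaks down branched-chain keto acids, starts 5.74 Mb after Gsta4 and was at 61.5, 63.6 and 64.4 CPM in control mice 1, 2 and 3 and at 155, 147 and 125 CPM in aPU.1KO mice 1, 2 and 3. Its log2 fold change was 1.17 (SE 0.10), with an adjusted p of 0.0174 in edgeR's quasi-likelihood test. Zfp949, a zinc finger gene that starts 10.4 Mb after Gsta4, was at 8.99, 8.54 and 9.60 CPM in control mice 1, 2 and 3 and at 18.8, 21.8 and 17.9 CPM in aPU.1KO mice 1, 2 and 3. It had a log2 fold change of 1.11 (SE 0.12) and an adjusted p of 0.0324 in the same edgeR test. In neither gene did the groups overlap, and the controls were closely spaced. Since the window was drawn around genes already known to be called, nothing is read from the share of 1.89%. Controls in the study were littermates, and any inherited difference on this chromosome that goes with Cre cannot be told apart from loss of PU.1 here.

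**Figure D5:**
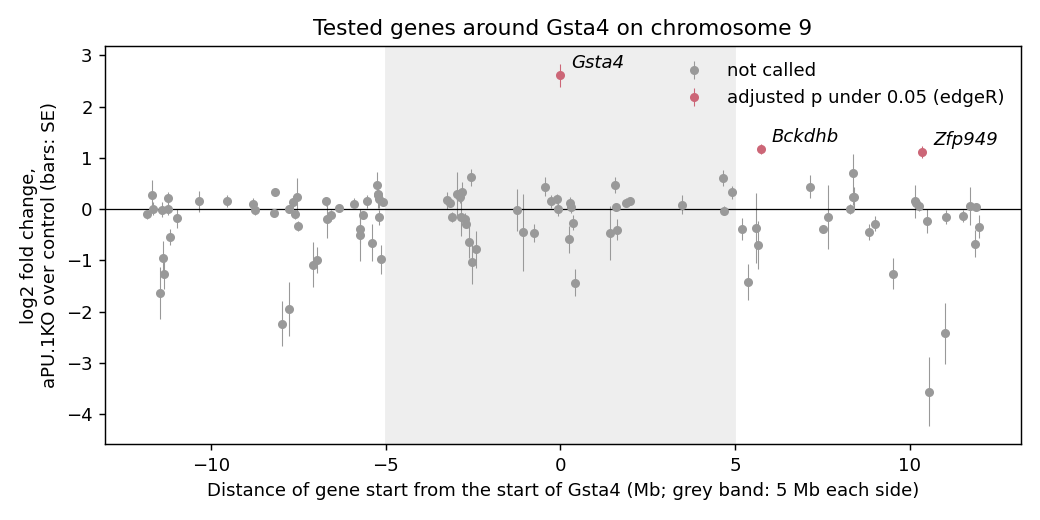
Log2 fold change, aPU.1KO over control, of tested genes within 12 Mb of Gsta4, against distance from its start in Mb, with the standard error as bars, genes past edgeR's adjusted threshold in red and a grey band over the nearest 5 Mb. Gsta4 at 2.61, Bckdhb at 1.17 and Zfp949 at 1.11 stand above the other genes, and no gene inside the grey band other than Gsta4 is red.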

How the data were processed

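RNA was measured in 6 adipocyte libraries, 1 per mouse and 3 per genotype. The authors quantified reads with Salmon against GRCm38 and deposited estimated counts per gene as whole numbers, 35122 genes with 0.0367% of counts in genes without a symbol. Versions of their tools are not given in the sources used here. Names, positions and transcripts came from GENCODE M21.

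Counts were filtered with filterByExpr, scaled by TMM and tested with edgeR 4.0.16 (quasi-likelihood, two-sided, Benjamini-Hochberg over 13925 genes, threshold 0.05) in R 4.3.3. DESeq2 1.42.0 and limma 3.58.1 served as alternatives. Levels per kb used the median length of a gene's coding transcripts, and log2 CPM for likeness used a prior count of 2. The test was checked on simulated counts. Replicates differed by more than counting noise. The labels number separate mice, so errors cover variation between mice.

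The 10 genes and all lists were chosen with earlier results of these data known. Named genes were all members, all tested family genes, up to 4 genes of smallest p per list, the 3 nearest tested neighbours on each side with any within 5 Mb at an unadjusted p under 0.05 and an absolute log2 fold change of at least 1, and the 5 genes most like Gsta4, of which 1 is not reported here. Further list genes named (Gclm, Gss, Gsr, Chac1, Ggt5, Aldh2, Akr1b8, Nqo1, Nfe2l2 and Keap1), and Bckdhb, Zfp949, Lysmd2, Irak1bp1 and Cox7a2, were picked after their values were seen.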

Additional observations from a re-analysis of the deposited data

How the results depend on the processing

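Of 160 values of the 10 transferases under the 16 other settings, 152 moved by less than 1 SD between replicates, and the other 8 were all under adipocyte marker scaling, where Gsta3 and Gstm1 alone moved less. Against control mouse 2 alone, which is not among the 160, Gsta3 and Gsta4 moved by more. The log2 fold change of Gsta4 was 2.26 with adipocyte marker scaling and 2.28 against control mouse 2 alone. Marker scaling moved the median of all genes to -0.33, and with it Gstz1 to -0.05, Gstp1 to -0.10, Gstk1 to -0.11 and Gstm2 to -0.31, each from a value above 0. Without 1 replicate at a time Gsta4 ranged from 2.40 to 2.79. Over all genes, calls higher and lower numbered 601 and 1266 by DESeq2, 36 and 3018 with marker scaling, 2 and 3 with at least 10 counts in every library, and 21 and 125 with no filter, and ranged from 0 to 202 and from 0 to 991 with 1 replicate left out, the lowest without control mouse 1 and the highest without control mouse 2. By DESeq2, 4 other family genes, 7 of glutathione turnover, 3 of aldehyde handling, 2 of the NRF2 list and 5 neighbours of Gsta4 were called, and with marker scaling 2, 6, 3, 6 and 8 in that order. With 1 replicate left out these ranged over 0 to 3, 0 to 3, 0 to 2, 0 to 2 and 0 to 1, the highest without control mouse 2. Why the counts moved was not tested. With 3 mice per group and 1 deeper library, small differences are the least certain, and levels of Gstp1 and Gstm1 depend on how reads shared with close copies were split. Controls in the study were littermates, but which mice shared a litter is not given in the sources used here. No paired analysis was therefore run, and any effect of litter was not tested.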
